A study of Mus musculus with 2 samples.

Results

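The antioxidant genes of mouse lung cancer cells were followed across 2 RNA-seq libraries, 1 of KPR- cells and 1 of KPR_restored cells. The set was given by name and holds 37 of the 23183 genes in the deposited files. The 37 genes comprise 7 NRF2 regulators and marker targets, 10 genes of glutathione synthesis and use, 11 thioredoxin and peroxiredoxin genes, 5 genes that supply NADPH, and 4 genes that remove superoxide or peroxide. All 37 symbols were found in both libraries. The rule names genes and sets no threshold on a measured value, but the list was drawn up with earlier results of these data known.

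The KPR- line was derived from a lung tumour of a mouse with an oncogenic *K-Ras* allele behind a *loxP-Stop-loxP* cassette, floxed *p53*, 1 floxed *Runx3* allele and 1 *Runx3* allele blocked by a *Frt-Stop-Frt* cassette, a Tomato reporter and the tamoxifen-dependent recombinase Flp-ERT2. Inhaled adenovirus with *CMV* promoter-driven Cre switched on *K-Ras* and removed the floxed alleles, so Cre was not limited to 1 lung cell type and the cells of both groups lack *p53*. In the study, 4-OHT (4-hydroxytamoxifen, an active form of tamoxifen) removes the remaining cassette and turns KPR- cells into KPR_restored cells, and the RNA-seq was done to find genes regulated by *Runx3*. The labels give the *RUNX3* genotypes -/- and -/+, the times 0 h and 16 h, and 1 μM 4-OHT for both libraries.

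Each condition is 1 library, so there are no replicates, no difference could be set against the spread between cultures, and no test of the conditions was possible. *Runx3* restoration, exposure to 4-OHT and time in culture cannot be told apart in this design. Nor can, in a bulk culture, fewer cells of a type and less RNA per cell. Values are FPKM, fragments scaled to transcript length and to sequencing depth, and a difference is log2(FPKM + 0.005) in KPR_restored minus that in KPR-. A gene was called higher or lower at a difference of 0.5 or more either way if its mean FPKM over both libraries was at least 1.

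About 21.7 M fragments in KPR- and 22.6 M in KPR_restored were estimated from the steps between low FPKM values. From them, 95% Clopper-Pearson (exact) intervals of the differences were computed. These intervals cover counting error only, because PCR copies are not independent molecules and cultures were not repeated. *Runx3* itself (chr4:135120652-135177990) had 0.348 FPKM in KPR- and 0.349 FPKM in KPR_restored, and *Trp53*, the gene of p53, had 2.12 and 2.17 FPKM. About 28 and 29 fragments stood behind *Runx3*, whose mean was under 1 FPKM. The difference of *Runx3* was 0.007, with an interval of -0.80 to 0.80, so no rise of its RNA was seen. These gene-level values do not tell the restored or floxed alleles from other transcripts, so they do not check the labels. Each direction below is that of the library labelled KPR_restored. General epithelial markers were at 1 FPKM or more for 5 of 5 genes, *Epcam* at 105 and 91.6 FPKM. Of 6 alveolar type II markers only *Abca3* was (18.2 and 14.6 FPKM), *Sftpc*, *Sftpb*, *Sftpa1* and *Lamp3* were listed at 0 in both libraries, and all 3 club cell markers were listed at 0. The summed FPKM of 5 fibroblast markers was 12.7 in KPR- and 5.33 in KPR_restored, most of it *Col1a1* (12.2 and 4.21), while *Dcn* (0.173 and 0.742) and *Pdgfra* (0.273 and 0.363) were higher in KPR_restored and *Lum* was at 0 in both. That of 5 leukocyte markers was 3.08 and 6.83, nearly all of it *Cd68* (3.08 and 6.78), with *Adgre1* and *Cd3e* at 0 in both. That of 4 endothelial markers was 1.16 and 2.22, with *Tek* at 0 in both. The part of these markers in the differences below was not tested.

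NRF2, encoded by *Nfe2l2*, is a transcription factor that the adaptor KEAP1 normally sends for degradation. When oxidants or electrophiles modify KEAP1, NRF2 accumulates, pairs with a small MAF protein and binds antioxidant response elements near genes for glutathione synthesis, thioredoxin recycling, NADPH supply and quinone reduction. Glutathione and thioredoxin are separate thiol systems that both draw on NADPH to reduce peroxides and oxidized proteins. Mutations of KEAP1 or NRF2 that keep the pathway on are known from human lung cancers.

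RefSeq promoters of 300 bases (250 before the start site and 50 after it, GRCm38.p6) were matched for 33 of the 37 genes, with 44 promoters in all. *Gclc*, *Gsr*, *Prdx6* and *Sod3* had no entry. The 5 promoters below are shown because 4 of them hold the letters in which an antioxidant response element and an AP-1 site coincide, and the fifth is that of *Nfe2l2*. Capitals mark the antioxidant response element core, written TGACNNNGC or in its G form TGAGNNNGC, and the AP-1 letters TGANTCA, on either strand. The windows are chr2:152105274-152105573 (plus strand) for *Srxn1*, chr8:119436897-119437196 (plus strand) for *Osgin1*, chr4:116685349-116685648 (plus strand) for *Prdx1*, chr9:86695865-86696164 (minus strand) for *Me1* and chr2:75704614-75704913 (minus strand) for *Nfe2l2*, each printed 5′ to 3′ in the direction of its gene.
Srxn1: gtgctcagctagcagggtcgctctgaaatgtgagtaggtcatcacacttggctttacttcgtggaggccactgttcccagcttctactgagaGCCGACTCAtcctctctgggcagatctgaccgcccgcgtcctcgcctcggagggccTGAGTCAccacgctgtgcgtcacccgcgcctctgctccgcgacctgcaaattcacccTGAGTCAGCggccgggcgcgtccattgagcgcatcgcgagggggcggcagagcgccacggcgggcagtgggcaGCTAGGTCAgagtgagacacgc
Osgin1: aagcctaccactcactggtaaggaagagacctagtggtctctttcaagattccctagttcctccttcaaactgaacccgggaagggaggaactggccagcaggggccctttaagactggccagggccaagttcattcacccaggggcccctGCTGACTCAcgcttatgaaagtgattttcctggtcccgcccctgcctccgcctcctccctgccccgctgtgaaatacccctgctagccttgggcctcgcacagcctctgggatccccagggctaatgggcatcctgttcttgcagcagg
Prdx1: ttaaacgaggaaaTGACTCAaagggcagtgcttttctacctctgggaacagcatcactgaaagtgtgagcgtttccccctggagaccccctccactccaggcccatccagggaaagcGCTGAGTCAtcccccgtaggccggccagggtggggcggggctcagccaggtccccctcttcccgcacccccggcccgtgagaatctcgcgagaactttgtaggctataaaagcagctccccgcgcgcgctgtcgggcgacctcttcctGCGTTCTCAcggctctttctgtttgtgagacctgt
Me1: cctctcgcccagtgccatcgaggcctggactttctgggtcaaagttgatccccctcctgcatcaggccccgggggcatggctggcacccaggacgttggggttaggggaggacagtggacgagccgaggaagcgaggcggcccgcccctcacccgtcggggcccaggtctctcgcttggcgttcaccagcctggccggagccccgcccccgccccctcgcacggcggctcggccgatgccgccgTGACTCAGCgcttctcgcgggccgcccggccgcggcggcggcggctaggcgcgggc
Nfe2l2: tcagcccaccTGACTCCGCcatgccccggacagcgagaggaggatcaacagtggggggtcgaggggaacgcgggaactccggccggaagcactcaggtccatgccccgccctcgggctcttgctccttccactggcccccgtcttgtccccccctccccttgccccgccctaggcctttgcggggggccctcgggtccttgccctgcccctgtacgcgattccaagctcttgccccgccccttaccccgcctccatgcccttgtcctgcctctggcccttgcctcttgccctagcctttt

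The core TGACNNNGC was present in the promoters of 11 of the 33 matched genes (33.3%) and in those of 14% of all 27025 genes with a promoter. The 11 were *Nfe2l2*, *Mafg*, *Gclm*, *Ggct*, *Txnrd1*, *Srxn1*, *Prdx1*, *Sod1*, *G6pdx*, *Pgd* and *Me1*, so each of the 5 groups held at least 1. Their differences in expression ran from -0.17 for *Ggct* to 0.82 for *Srxn1*. The windows with the matches of *Pgd*, *Txnrd1* and *G6pdx* lie wholly inside the annotated gene, downstream of its outermost start. So does the window of *Osgin1* printed above. Whether these windows act as promoters in these cells was not tested. In *Nfe2l2*, the core began at position -240, counting the first transcribed base as 1.

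The G form TGAGNNNGC, added after the values were seen, was found in 6 matched genes (18.2%, against 19.8% of all genes). The AP-1 letters TGANTCA occurred in 4 matched genes (12.1%, against 8.97% of all genes). All 4 were genes in which AP-1 letters run into a core as TGANTCAGC, a form also searched after the values were seen and held by 1.37% of all genes. It began at position -45 in *Srxn1*, -99 in *Osgin1*, -133 in *Prdx1* and -6 in *Me1*. The 4 genes had differences of 0.82, 1.49, 0.16 and 0.07, so the same letters stood before genes that were called higher and genes that were not. The RUNX core TGTGGT was found in *Nfe2l1*, *Prdx2* and *Prdx3* (9.09% of matched genes, against 18.9% of all genes), and the C/EBP-ATF letters TGATGNAA in none of the 33, against 4.51% of all genes. A match describes the letters of this window and is not a measured binding site.

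**Figure D1:**
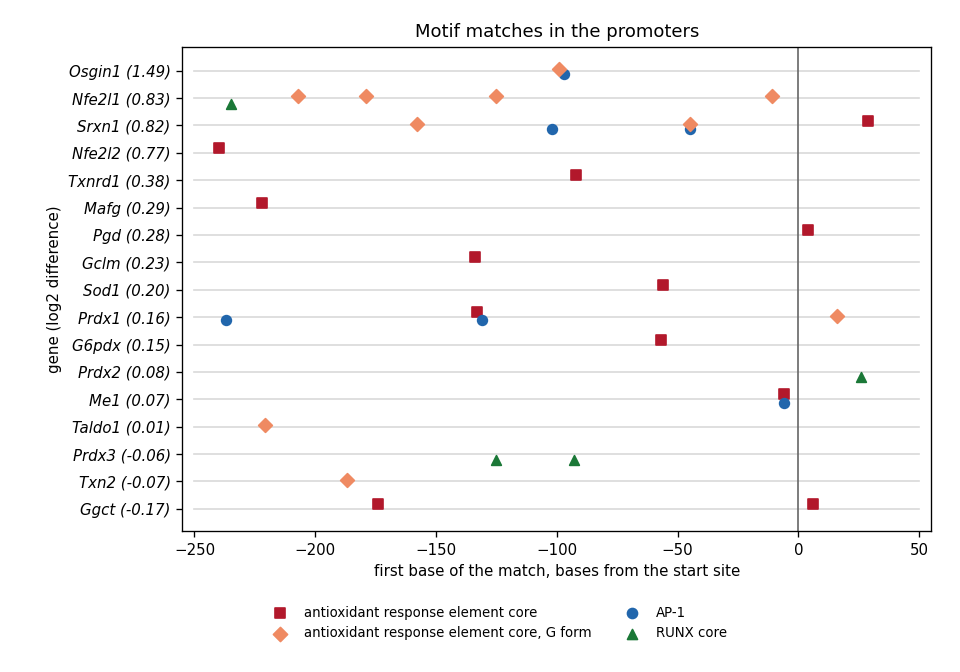
Matches to 4 motifs along the promoters of the 17 matched genes that hold any, ordered by the log2 difference in parentheses. The x axis gives the first base of each match in bases from the start site (vertical line), with the antioxidant response element core as squares, its G form as diamonds, AP-1 as circles and the RUNX core as triangles. In *Srxn1*, *Osgin1*, *Prdx1* and *Me1* a circle lies on or beside a square or diamond.

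Of the 37 genes, 34 reached a mean of 1 FPKM, and *Gpx3*, *Gpx7* and *Sod3* did not. Among the 34, 6 genes (17.6%) were called higher in KPR_restored, where 12.1% of all 11231 genes at that level were. None of the 34 was called lower, where 9.29% of all genes were. Without the filter on low values, 6 of 37 were higher (16.2%, against 13.8% of all genes in the files) and 2 of 37, *Gpx3* and *Gpx7*, were lower (5.41%, against 12.9%). The higher genes were *Nqo1*, *Osgin1*, *Nfe2l1*, *Srxn1*, *Nfe2l2* and *Prdx5*, and 4 of them belong to the NRF2 group. *Nqo1* and *Osgin1* were placed in that group as marker targets. By group, 57.1% of the NRF2 group and 18.2% of the thioredoxin and peroxiredoxin group were called higher, and none of the other groups. These shares rest on 7 and 11 genes. The median difference of the 34 genes was 0.11, beside a median of 0.0086 over all genes at that level. Differences were within 0.25 of 0 for 18 of the 34 genes, a share of all genes of 50.1%.

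The antioxidant genes were abundant. In all, 11 had a mean of 100 FPKM or more, 18 lay between 10 and 100, 5 between 1 and 10, and 3 under 1, whereas 7.43% of all expressed genes reached 100. The peroxiredoxin *Prdx1* was the highest in both libraries, at 443 and 495 FPKM. Summed over the 37 genes, the level was 3438 FPKM in KPR- and 3752 FPKM in KPR_restored, or 0.660% and 0.716% of each library's total FPKM. Because FPKM is scaled to length, these levels may be set beside each other only roughly. They depend on the transcript lengths used, and reads of some genes may be lost to near-identical copies, as given below.

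**Figure D2:**
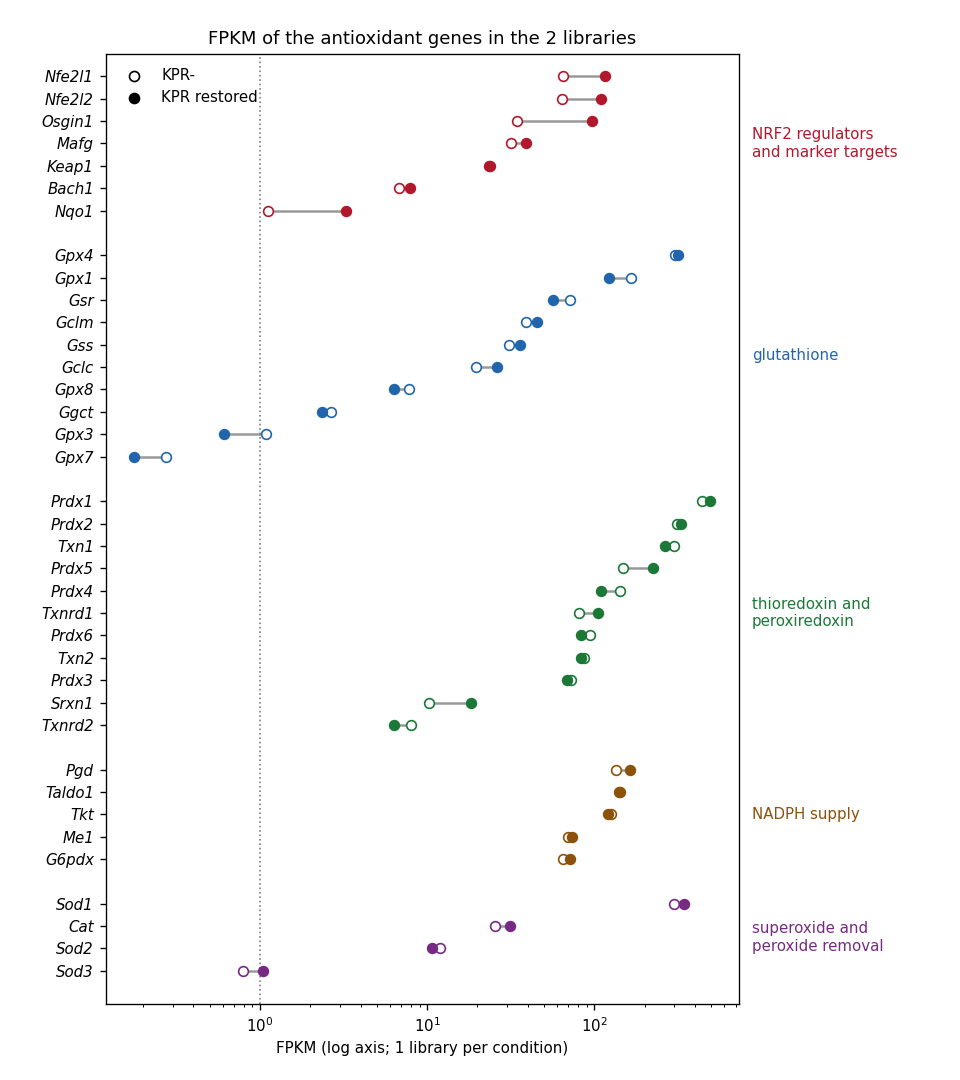
FPKM of each of the 37 genes in KPR- (open circles) and KPR_restored (filled circles), 1 library per condition, on a log axis, grouped by role and ordered by mean level. The dotted line marks 1 FPKM. *Nqo1* and *Osgin1* show the widest gaps among genes above it, and *Gpx1*, *Gsr* and *Prdx4* lie lower in KPR_restored.

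Among the regulators, the 2 activators that bind antioxidant response elements were higher in KPR_restored and *Keap1* was not. *Nfe2l2* (chr2:75675513-75704641) had 63.9 FPKM in KPR- and 109 FPKM in KPR_restored, a difference of 0.77 (counting interval 0.71 to 0.84). *Nfe2l1* (chr11:96817414-96829968), which encodes the related factor NRF1 that also drives proteasome genes, had 65.3 and 116 FPKM, a difference of 0.83 (0.78 to 0.87). The transcripts of both factors thus stood at like levels in each library, 1.71-fold and 1.77-fold higher in KPR_restored. *Keap1*, the adaptor that marks NRF2 for degradation, had 23.7 FPKM in KPR- and 23.3 FPKM in KPR_restored, and its interval of -0.12 to 0.08 held 0. The ratio of *Nfe2l2* to *Keap1* FPKM was 2.70 in KPR- and 4.68 in KPR_restored. NRF2 is regulated largely by protein stability, which RNA levels do not measure.

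*Bach1*, a repressor that competes with NRF2 at the same elements, had 6.74 and 7.87 FPKM, a difference of 0.22 (0.09 to 0.36). *Mafg*, the small MAF partner shared by NRF2 and BACH1, had 31.7 and 38.9 FPKM, a difference of 0.29 (0.23 to 0.36). Both intervals lay above 0 and below the call at 0.5.

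The 2 marker targets had the largest differences of the 37 genes. *Nqo1* (chr8:107388225-107403206), a quinone reductase widely used as a readout of NRF2, had 1.12 FPKM in KPR- and 3.28 FPKM in KPR_restored, a difference of 1.54. Only about 33 and 99 fragments stood behind these values, and the counting interval ran from 0.96 to 2.16. Its level in KPR- exceeded that of 1.82% of the expressed genes, so *Nqo1* was 2.92-fold higher and yet remained among the low genes of the set in both libraries. *Osgin1* (chr8:119434124-119446256), an oxidative stress-induced growth inhibitor, had 34.4 and 96.9 FPKM, a difference of 1.49 with an interval of 1.40 to 1.58 from about 1340 and 3899 fragments. Of all expressed genes, 1.01% had a larger difference than *Nqo1* and 1.08% a larger one than *Osgin1*. The 7 genes of this group had a median difference of 0.77 and a summed level of 227 FPKM in KPR- and 395 FPKM in KPR_restored. *Nqo1* and *Osgin1* were put in this group as marker targets, while *Gclc* (0.42) and *Txnrd1* (0.38), also textbook NRF2 targets, stand in other groups. The median of the group and its share of the calls therefore depend in part on that placement.

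The glutathione genes had no call in either direction among the 8 of 10 that reached a mean of 1 FPKM, and their median difference was -0.06. Of all expressed genes, 12.1% were called higher and 9.29% lower, so few calls would stand among 8 genes at those shares. The genes that make glutathione were above 0. Among the other genes of the group, only *Gsr* and *Gpx1* had counting intervals below 0. The intervals of *Gpx8*, *Ggct*, *Gpx3* and *Gpx7* held 0, and *Gpx4* lay near 0. *Gclc* and *Gclm* encode the catalytic and modifier subunits of glutamate-cysteine ligase, the rate-limiting step of glutathione synthesis. *Gclc* had 19.6 FPKM in KPR- and 26.2 FPKM in KPR_restored, a difference of 0.42 (0.32 to 0.52), the largest of the group. *Gclm* had 39.0 and 45.6 FPKM, a difference of 0.23 (0.17 to 0.28). The modifier subunit transcript was the more abundant in both libraries, with a ratio of *Gclm* to *Gclc* FPKM of 1.99 in KPR- and 1.74 in KPR_restored. *Gss*, glutathione synthetase, which adds glycine in the last step, had 30.7 and 35.7 FPKM, a difference of 0.22 (0.10 to 0.33). All 3 synthesis genes therefore had counting intervals above 0.

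*Gsr*, glutathione reductase, which returns oxidized glutathione to its reduced form with NADPH, had 71.8 FPKM in KPR- and 56.8 FPKM in KPR_restored, a difference of -0.34 (-0.40 to -0.27). *Gpx1*, a selenium-dependent peroxidase of the cytosol and mitochondria, had 167 and 123 FPKM, a difference of -0.44 (-0.52 to -0.36), the lowest of the 34 genes. *Gpx4*, the peroxidase that removes lipid hydroperoxides and restrains ferroptosis, had 302 and 315 FPKM, a difference of 0.060 (0.005 to 0.115). The value of *Gpx4* was -0.02 with the trend over transcript length removed, and its interval held 0 (-0.01 to 0.13) with the shortest coding transcript, so its side of 0 was not settled. *Gpx1* held 34.9% of the summed FPKM of the 5 in KPR- and 27.6% in KPR_restored, and *Gpx4* 63.2% and 70.8%.

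*Gpx8*, a peroxidase of the endoplasmic reticulum, had 7.80 and 6.30 FPKM, a difference of -0.31 whose interval of -0.67 to 0.06 held 0. *Ggct*, gamma-glutamylcyclotransferase of glutathione breakdown, had 2.65 and 2.36 FPKM, and its interval of -0.46 to 0.11 also held 0. *Gpx3*, the secreted plasma peroxidase, had 1.08 and 0.612 FPKM from about 32 and 19 fragments, a difference of -0.82 (-1.70 to 0.07). *Gpx7*, of the endoplasmic reticulum, had 0.272 and 0.177 FPKM from about 6 and 4 fragments, with an interval of -2.89 to 1.45. At this depth no difference beyond counting error was detectable for these 4 genes.

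The thioredoxin and peroxiredoxin genes were the most abundant group, with a summed level of 1697 FPKM in KPR- and 1789 FPKM in KPR_restored. All 11 reached a mean of 1 FPKM, and the median difference was -0.06. Of the 11, 2 were called higher (18.2%, against 12.1% of all expressed genes) and none lower (against 9.29%). *Srxn1* (chr2:152105516-152111376), sulfiredoxin, which rescues overoxidized peroxiredoxins, had 10.3 FPKM in KPR- and 18.3 FPKM in KPR_restored, a difference of 0.82 (0.67 to 0.97). Its promoter, printed above, held a core at position 29 and the fused AP-1 letters at position -45. *Prdx5* (chr19:6906697-6910106), a peroxiredoxin of mitochondria, peroxisomes and cytosol, had 148 and 224 FPKM, a difference of 0.60 (0.54 to 0.66). *Prdx5* shares 19.1% of its exon bases with *Trmt112* on the opposite strand, which had 101 and 110 FPKM, a difference of 0.12. Whether counting used the strand is not stated, so reads of the shared bases may not be told apart.

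The other 5 peroxiredoxins lay between -0.37 and 0.16. *Prdx1*, the main cytosolic peroxiredoxin, had a difference of 0.16 (0.13 to 0.19), and *Prdx2*, also cytosolic, had 313 and 329 FPKM, a difference of 0.08 (0.04 to 0.12). *Prdx3*, the mitochondrial member, had 72.1 and 69.1 FPKM (interval -0.15 to 0.03). *Prdx4*, the member of the endoplasmic reticulum, had 143 FPKM in KPR- and 110 FPKM in KPR_restored, a difference of -0.37 (-0.46 to -0.29). *Prdx6*, which reduces phospholipid hydroperoxides with glutathione, had 94.7 and 82.8 FPKM, a difference of -0.19 (-0.26 to -0.13). The family therefore differed in makeup more than in sum. Its summed FPKM was 1213 and 1310, while the share of *Prdx5* was 12.2% in KPR- and 17.1% in KPR_restored and that of *Prdx4* was 11.8% and 8.40%.

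*Txn1*, cytosolic thioredoxin, had 298 FPKM in KPR- and 265 FPKM in KPR_restored, a difference of -0.17 (-0.22 to -0.11). *Txnrd1*, the selenoprotein that reduces it with NADPH, had 81.4 and 106 FPKM, a difference of 0.38 (0.33 to 0.43). The substrate and its reductase were on opposite sides of 0, and the ratio of *Txn1* to *Txnrd1* FPKM was 3.66 in KPR- and 2.50 in KPR_restored. The reductases of the thiol systems also parted, since the ratio of *Txnrd1* to *Gsr* FPKM was 1.13 in KPR- and 1.86 in KPR_restored. The mitochondrial pair *Txn2* and *Txnrd2* had differences of -0.07 (-0.16 to 0.02) and -0.34 (-0.59 to -0.08), from 86.8 to 82.9 FPKM and from 7.97 to 6.32 FPKM.

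The NADPH genes had the narrowest range of differences, from -0.06 to 0.28, with no call and a median of 0.07. *G6pdx*, glucose-6-phosphate dehydrogenase, which opens the oxidative branch of the pentose phosphate pathway, had 64.8 FPKM in KPR- and 71.8 FPKM in KPR_restored, a difference of 0.15 (0.08 to 0.22). *Pgd*, the second NADPH-yielding enzyme of that branch, had 134 and 163 FPKM, a difference of 0.28 (0.23 to 0.33). The enzymes of the non-oxidative branch, *Tkt* (transketolase) and *Taldo1* (transaldolase), differed by less, at -0.06 (-0.10 to -0.01) and 0.01 (-0.06 to 0.08). *Tkt* had 125 and 120 FPKM and *Taldo1* 141 and 142 FPKM. *Me1*, the cytosolic malic enzyme, had 69.8 and 73.4 FPKM, a difference of 0.07 (0.02 to 0.13). *G6pdx* shares 13.6% of its exon bases with *Ikbkg* on the opposite strand, which had 9.69 and 12.3 FPKM.

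Of the genes that remove superoxide or peroxide, none was called. *Sod1*, the cytosolic copper-zinc superoxide dismutase, had 299 FPKM in KPR- and 342 FPKM in KPR_restored, a difference of 0.20 (0.12 to 0.27). *Sod2*, the mitochondrial manganese enzyme, had 11.9 and 10.8 FPKM, a difference of -0.15 (-0.26 to -0.04). *Sod1* made up 95.9% and 96.7% of the summed FPKM of the 3 dismutases. *Cat*, catalase of the peroxisome, had 25.6 and 31.2 FPKM, a difference of 0.29 (0.18 to 0.39). *Sod3*, the secreted dismutase, had 0.796 and 1.04 FPKM from about 61 and 83 fragments, with an interval of -0.10 to 0.89 that held 0.

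**Figure D3:**
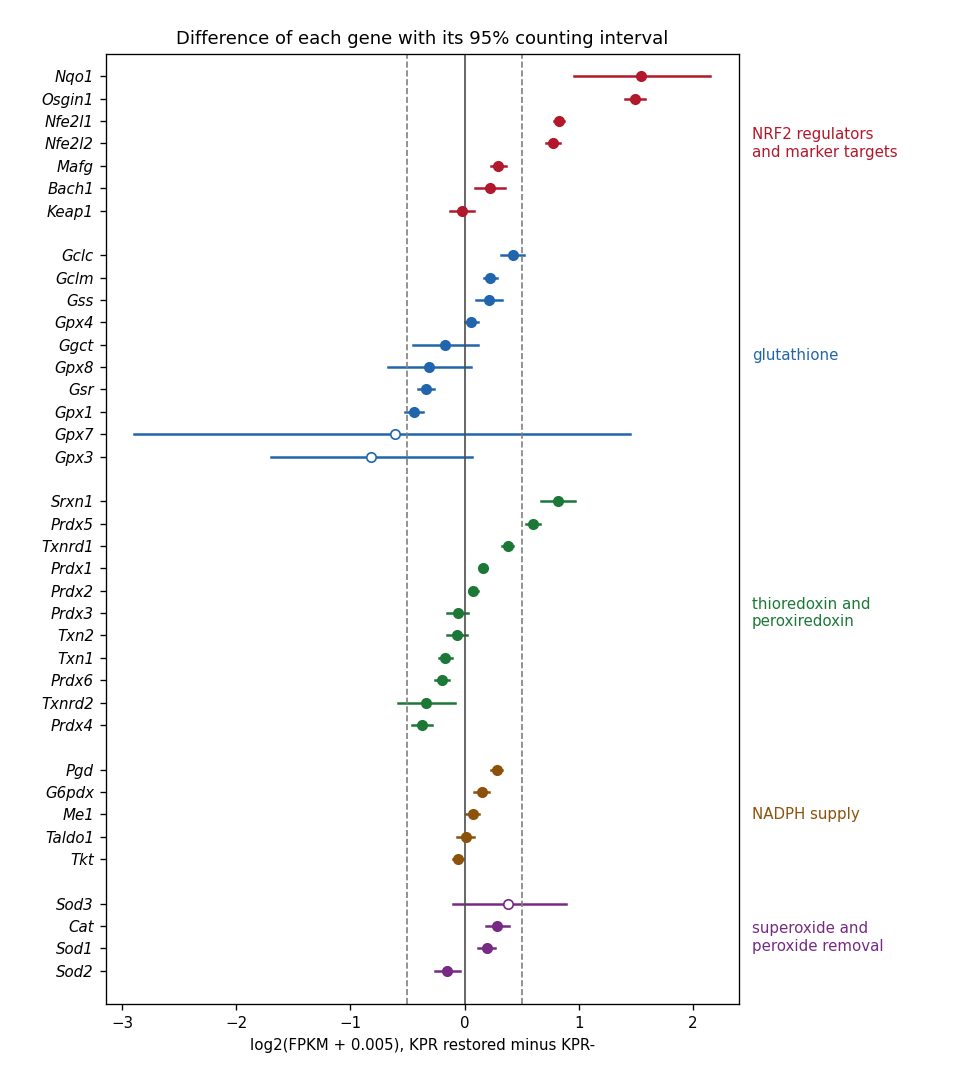
Difference in log2(FPKM + 0.005), KPR_restored minus KPR-, of each of the 37 genes (points) with its 95% counting interval (bars, counting error only), grouped by role. Open points are genes with a mean FPKM under 1, and dashed lines mark -0.5 and 0.5. The 6 called genes have their whole interval at 0.5 or above, and the widest bars belong to *Gpx7* and *Gpx3*.

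Over all 34 genes, the counting interval lay above 0 for 20, below 0 for 8 and held 0 for 6. Grouped by the place of their proteins in the cell, the 4 genes listed as mitochondrial (*Txn2*, *Txnrd2*, *Prdx3* and *Sod2*) had differences from -0.34 to -0.06, with a summed level of 179 and 169 FPKM, and the intervals of *Txn2* and *Prdx3* held 0. *Prdx5* and *Gpx1*, whose proteins are found in mitochondria and elsewhere, were not in that list and had 0.60 and -0.44, so genes with mitochondrial products stood on both sides of 0. The 5 genes of the secretory pathway or secreted (*Prdx4*, *Gpx7*, *Gpx8*, *Gpx3* and *Sod3*) had a summed level of 153 FPKM in KPR- and 118 FPKM in KPR_restored, most of it *Prdx4*. All 6 higher genes, *Prdx5* among them, were in the remaining 28 (21.4%, against 12.1% of all expressed genes). The median difference of the 28 was 0.21, beside 0.0086 over all expressed genes. The 28 are most of the 34, and the 2 lists by place held only 4 and 2 genes at a mean of 1 FPKM. Few calls could therefore stand in those lists.

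**Figure D4:**
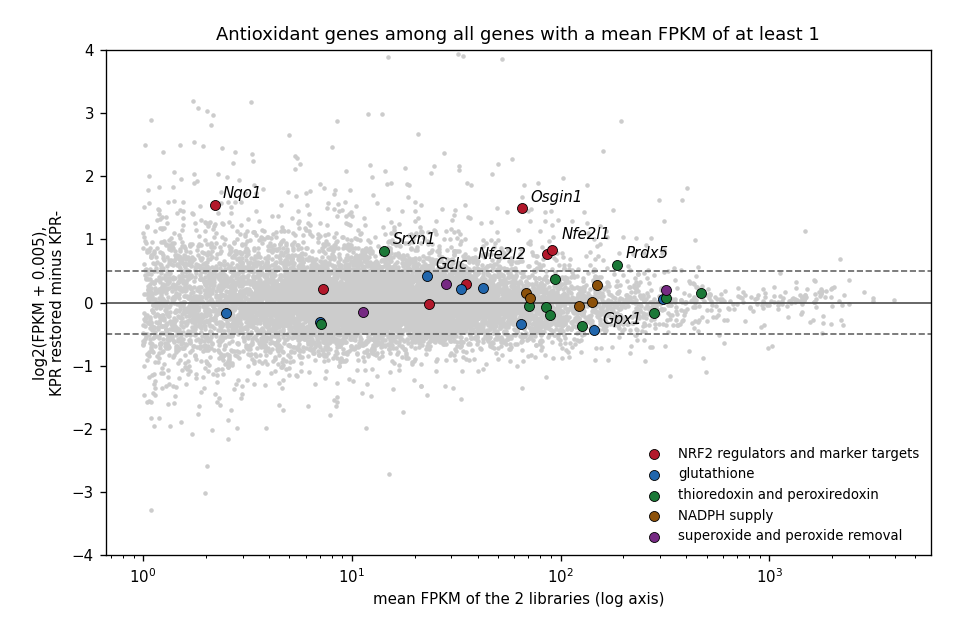
Difference in log2(FPKM + 0.005) against mean FPKM (log axis) for the 11231 genes that reached a mean of 1 FPKM (grey) and the 34 antioxidant genes among them (coloured by group). Dashed lines mark -0.5 and 0.5, and 21 genes lie beyond the plotted limit of 4 on either side. *Nqo1* sits at the low end of expression and *Osgin1*, *Nfe2l1*, *Nfe2l2* and *Prdx5* in the upper part.

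The other genes of these pathways were taken from lists chosen with earlier results of these data known. Of 93 listed genes, 72 reached that mean level, and 19 of them (26.4%) were called higher and 5 (6.94%) lower, where 12.1% and 9.29% of all expressed genes were. Their median difference was 0.12. With both libraries scaled to the same upper quartile, 15 were higher and 9 lower. The share called higher was larger than among the 34 antioxidant genes and was spread unevenly over the lists. It was 37.5% in the NRF2 network, 46.2% in the NRF2 targets, 41.7% in the glutathione list and 30.8% in the thioredoxin list. The share called lower was 27.3% in the NADPH list and 7.69% in the thioredoxin list. In the NADPH oxidase list both shares were 16.7%, and no list had more than 13 expressed genes.

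Of 8 expressed genes of the NRF2 network, 3 were higher and none lower, with a median of 0.13. *Sqstm1*, which encodes p62, an autophagy receptor that sequesters KEAP1, had 186 FPKM in KPR- and 577 FPKM in KPR_restored, a difference of 1.63, and *Maff*, a small MAF protein, had 27.8 and 50.2 FPKM, a difference of 0.85. Of 13 further NRF2 target genes, 6 were higher and none lower, with a median of 0.41. *Slc7a11*, the cystine transporter that feeds glutathione synthesis, had 3.14 and 24.9 FPKM, a difference of 2.98, and *Hmox1*, heme oxygenase, had 15.1 and 56.2 FPKM, a difference of 1.90. Both were named because they were the 2 largest rises of this list, so their place above its other genes follows from that choice. The genes of the list that were not called ran from -0.48 for *Ephx1* to 0.41 for *Gsta4*. *Gclc* at 0.42 and *Txnrd1* at 0.38, also textbook NRF2 targets, lay near the upper end of that range.

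Of 12 further glutathione genes, 5 were higher and none lower, with a median of 0.45. *Chac1*, which breaks glutathione down and is also a target of the stress factor ATF4, had 4.26 FPKM in KPR- and 63.7 FPKM in KPR_restored, a difference of 3.90. *Oplah*, 5-oxoprolinase of the same breakdown route, had 0.900 and 3.69 FPKM, a difference of 2.03. Of 13 further thioredoxin genes, 4 were higher and 1 lower, with a median of 0.10. *Sesn2*, a stress-induced sestrin, had 3.55 and 15.1 FPKM (2.09), and *Txnip*, which binds and inhibits thioredoxin, had 19.4 and 42.2 FPKM (1.12). The lower gene was *Msra*, methionine sulfoxide reductase A, at 2.08 and 0.989 FPKM (-1.07). It rested on about 74 and 37 fragments, with a counting interval of -1.66 to -0.46.

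Of 11 further NADPH genes, none was higher and 3 were lower, with a median of -0.22, and 4 of the 11 lay above 0. *Mthfd1*, of cytosolic folate metabolism, had 64.3 FPKM in KPR- and 41.5 FPKM in KPR_restored, a difference of -0.63. *Me2*, mitochondrial malic enzyme, had 37.5 and 25.9 FPKM, a difference of -0.54. The third gene, named after its value was seen, was *Nnt*, the mitochondrial transhydrogenase, at 31.2 and 21.9 FPKM (-0.51). Of 6 NADPH oxidase genes, which make superoxide or hydrogen peroxide, *Noxo1* (0.968 and 1.55 FPKM, 0.68) was higher and *Cyba* (79.9 and 55.3 FPKM, -0.53) lower. About 43 and 71 fragments stood behind *Noxo1*, and its counting interval of 0.11 to 1.26 began under the threshold. None of the 7 genes of the selenocysteine machinery that *Gpx1*, *Gpx4* and *Txnrd1* need was called, with a median of -0.06, and neither of the 2 copper and redox chaperones was. *Oplah*, *Msra* and *Noxo1* were each under 1 FPKM in 1 library. Each therefore passed the filter on the mean only through the library in which it was higher, and each is in the counts above.

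**Figure D5:**
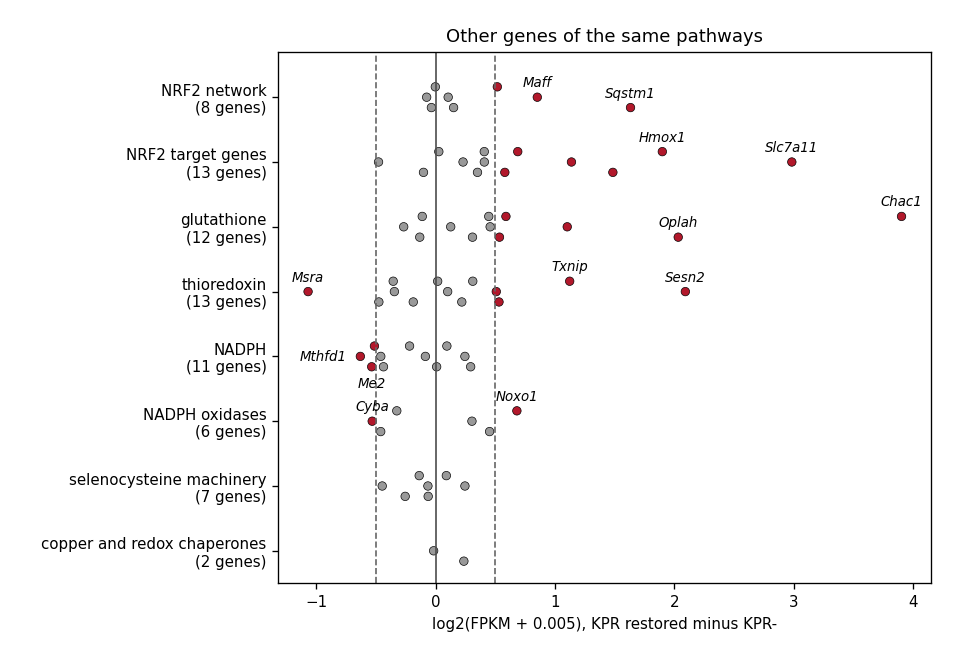
Difference in log2(FPKM + 0.005), KPR_restored minus KPR-, of the 72 other pathway genes that reached a mean of 1 FPKM, by list (rows). Red points lie at 0.5 or more either way (dashed lines), and the 2 largest in each direction of a list are named. Red points are on the right only in both NRF2 lists and the glutathione list, on both sides in the thioredoxin list (*Msra* on the left) and the NADPH oxidase list, and on the left only in the NADPH list.

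Some of these levels have limits in how reads can be assigned. *Gpx4*, *Sod1*, *Me1*, *Prdx2*, *Txn1* and *Prdx1* have near-identical copies elsewhere in the genome (at least 95% identity over at least 200 bases), which cover 73.7%, 72.5%, 60.1%, 37%, 29.3% and 26% of their transcripts. None of these copies has a row of its own in the files, so reads could have been split or lost. Differences also fell with transcript length over all expressed genes, from a median of 0.08 in the shortest of 10 length classes to -0.19 in the longest. With the median of each length class subtracted, *Prdx5* had 0.51 and remained called.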

How the data were processed

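Poly(A) RNA of KPR- and KPR_restored cells was sequenced as 1 directional paired-end library per condition. The authors removed adapters and reads under Q20 with FASTX_Trimmer and BBMap, mapped with TopHat to mm10 (both names from the submitters' processing notes) and estimated the deposited FPKM per gene with Cufflinks. The paper also names a geometric normalization with EdgeR, and whether the deposited FPKM carry it is not stated. If they do, the depths fitted here are scaling values and not sequenced fragments. Versions, annotation and use of strand are not given in the sources used here. FPKM needs a transcript length, so it depends on the annotation and on fragment length.

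The 37 genes, the pathway lists, thresholds and motifs were chosen with earlier results of these data known. All 37 are named, and of the other pathway genes the 2 largest differences of log2(FPKM + 1) each way per list among those called. Differences used log2(FPKM + 0.005), a pseudocount so small that low genes can have large differences on few fragments. *Gpx7*, for example, had -0.61 on this scale and -0.11 with a pseudocount of 1. Depth and mean fragment length (211 and 223 bases) were fitted to the steps of low FPKM values with GENCODE M21 lengths. Of 585 and 602 genes with 0.5 to 5.5 estimated fragments, 76.1% and 78.2% lay within 0.1 of a whole number, where evenly spread values would give 20%. Fragments behind a gene used its longest transcript with a RefSeq counterpart. Whole reads for all genes cannot be had from FPKM of genes with several transcripts, so no count model was used. The depth fit and the intervals were tried on data simulated from the same model that they assume. Such a trial checks the arithmetic and not whether that model holds for these libraries. Alternatives were other pseudocounts, scalings, filters and thresholds, a shorter transcript, and removal of the length trend. Scripts ran in Python 3.11.15 with scipy 1.17.1 (intervals), pandas 2.3.3 and numpy 2.4.6 (tables) and matplotlib 3.10.9 (figures).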

Additional observations from a re-analysis of the deposited data

How the results depend on the processing

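No paired analysis was possible because each condition has 1 library, and for the same reason no library could be left out. The count of 6 higher genes held with pseudocounts of 0.1 and 1, with 3 other scalings, without the filter and with the length trend removed (added after the values were seen). It was 5 at a mean FPKM of at least 5, where *Nqo1* was left out, and 2 (*Nqo1* and *Osgin1*) at a threshold of 1. The count of lower genes was 2 without the filter (*Gpx3* and *Gpx7*) and 1 with the length trend removed (*Gpx1*, -0.52). The median of the antioxidant genes was 0.07 to 0.11 over the settings. Of the other pathway genes, 10 were higher and 1 lower at a threshold of 1. There were 9 lower genes with upper-quartile scaling and 9 without the filter. A larger threshold, or more genes kept, changes a count by construction, and the cause of the other changes was not tested. *Gpx4*, *Prdx2* and *Taldo1*, all near 0, changed sign with the length trend removed. *Taldo1* also changed sign with upper-quartile scaling (-0.03). With the shortest coding transcript, the intervals of *Gpx4*, *Txnrd2*, *Sod2* and *Tkt* came to hold 0, and that of *Prdx5* began at 0.48, under the threshold. Depth limits *Gpx3*, *Gpx7*, *Gpx8*, *Ggct*, *Sod3* and *Nqo1* most.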
